A study of Mus musculus with 8 samples.

Results

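The clustered protocadherins are neuronal adhesion proteins made from 3 neighbouring gene clusters, alpha, beta and gamma. They were taken here as the 55 genes, of 19201 in the data, whose symbol is Pcdha, Pcdhac, Pcdhb, Pcdhga, Pcdhgb or Pcdhgc followed by a number. There were 11 such genes in the alpha cluster, 22 in the beta cluster and 22 in the gamma cluster, and 54 of the 55 reached the mean normalized count of 10 required for a test. Hippocampal RNA was sequenced from 4 libraries of wild-type mice, which the labels call Control with the genotype C57BL/6, and 4 libraries of Mbd2-/- mice. Mbd2 encodes a protein that binds methylated CpG sites, and the deletion is a germline one, not limited to a cell type. Each library pooled the bilateral hippocampi of 2 mice aged 10 to 12 weeks, bred as littermates from heterozygote parents, and neither group had any other treatment or allele in the labels. The comparison asks how loss of a reader of DNA methylation bears on genes whose promoter choice is known to depend on methylation.

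In the alpha and gamma clusters, each variable exon carries its own promoter and codes for the outer, transmembrane and first inner part of a protein, and it is spliced to a set of constant exons that all isoforms of the cluster share. Most beta genes consist of a single exon and share no constant exons. A neuron uses a few of the alpha, beta, gamma a and gamma b promoters, chosen largely at random, whereas the 5 C-type isoforms next to the constant exons (Pcdhac1, Pcdhac2, Pcdhgc3, Pcdhgc4 and Pcdhgc5) are used more regularly. Promoters that are methylated, a mark set in embryos by Dnmt3b, stay silent, and Ctcf and cohesin join an unmethylated promoter to a distant enhancer. The proteins bind the same isoform on other membranes, which lets a neuron tell its own branches from those of its neighbours.

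The 3 clusters lie side by side on chromosome 18 in mm9, at 37089939 to 37347311 (alpha), 37424652 to 37681073 (beta) and 37833989 to 38001527 (gamma). Mbd2 lies on the same chromosome, 33.4, 33.0 and 32.7 Mb away from them, and whether DNA linked to the Mbd2 allele reached the clusters was not tested. In the annotation, all 22 beta genes had a gene model under their own symbol, and 20 of these had 1 exon. Only 25 of the 55 members had such a model, because the variable exons of the alpha and gamma clusters are listed there as transcripts of joined genes. How the authors assigned reads on the shared constant exons, or reads that match several of the closely related beta genes, is not given in the sources used here. Values of single isoforms are therefore uncertain to that extent, and levels were compared between genes per length in the beta cluster only.

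The libraries held 8087750 to 23790825 reads on genes, and the values reported are the authors' normalized counts, which are reads divided by a size factor of the library. Mbd2 itself went from 346 ± 34.4 to 260.0 ± 54.3 (wild-type and Mbd2-/-, SD, n = 4 each), a log2 fold change of -0.43 (limma, Benjamini-Hochberg adjusted p = 0.0174, exact two-sided permutation p = 0.0571, where 0.0286 is the smallest possible). The genotypes overlapped, since Mbd2-/- replicate 3 had 339 and wild-type replicate 1 had 295, and the first exon remains expressed from this allele. The libraries labelled Mbd2-/- also differed in tissue markers. At an adjusted p under 0.05 (limma), all 17 choroid plexus genes rose, beside 12.0% of all genes tested. In the same test 11 of 14 thalamus genes (78.6%) fell, beside 10.0%. The choroid plexus sum went from between 24602 and 26312 in wild-type to between 47401 and 53831 in Mbd2-/- libraries. The thalamus sum went from between 9781 and 10165 in wild-type to between 7533 and 7963 in Mbd2-/- libraries. Mbd2-/- replicate 4 stood apart from the other 3 Mbd2-/- libraries over the whole data, and among the members in the beta and gamma b genes. Over genes with enough reads, its reads differed from those of Mbd2-/- replicates 1, 2 and 3 by a chi-square per degree of freedom of 10, 8.96 and 15.4. Among those 3 libraries the values were 3.67, 5.96 and 3.84. When it was left out, the genes called lower rose from 1450 to 2559 of 14504, so the counts of calls and of genes without overlap are given below without it as well.

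Of the 54 clustered protocadherins tested, 5 fell in the Mbd2-/- hippocampus and 0 rose at an adjusted p under 0.05 (limma). DESeq2 and edgeR on the recovered reads called 0 higher as well, and 1 member (Pcdhgc3) was higher at an unadjusted p under 0.05 by each of the 3 tools. Those that fell were Pcdhga2, Pcdhga7, Pcdhga9 and Pcdhga10 of the gamma cluster and Pcdha12 of the alpha cluster. The 5 genes are 9.26% of the members tested, beside 10.0% of all 14504 genes called lower and 12.0% called higher, so the share called lower was near the background. The members leaned to one side all the same. The log2 fold change was below 0 for 46 of 54 (85.2%), against 50.0% of all genes tested, and its median was -0.19, against -0.00 over all genes and 0.01 over the 12223 genes whose mean level lay within the range of the members. Neighbouring genes that share exons and a locus are not independent of each other, and in bulk tissue fewer cells of a type cannot be told apart from less RNA per cell. In 13 of the 54 every Mbd2-/- library lay below every wild-type library, which is 24.1% beside 11.5% of all genes, and in 0 members did they all lie above, beside 12.1% of all genes. With Mbd2-/- replicate 4 removed these counts were 20 (37.0%, beside 19.6% of all genes) and 1 (1.85%, beside 19.6%).

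**Figure D1:**
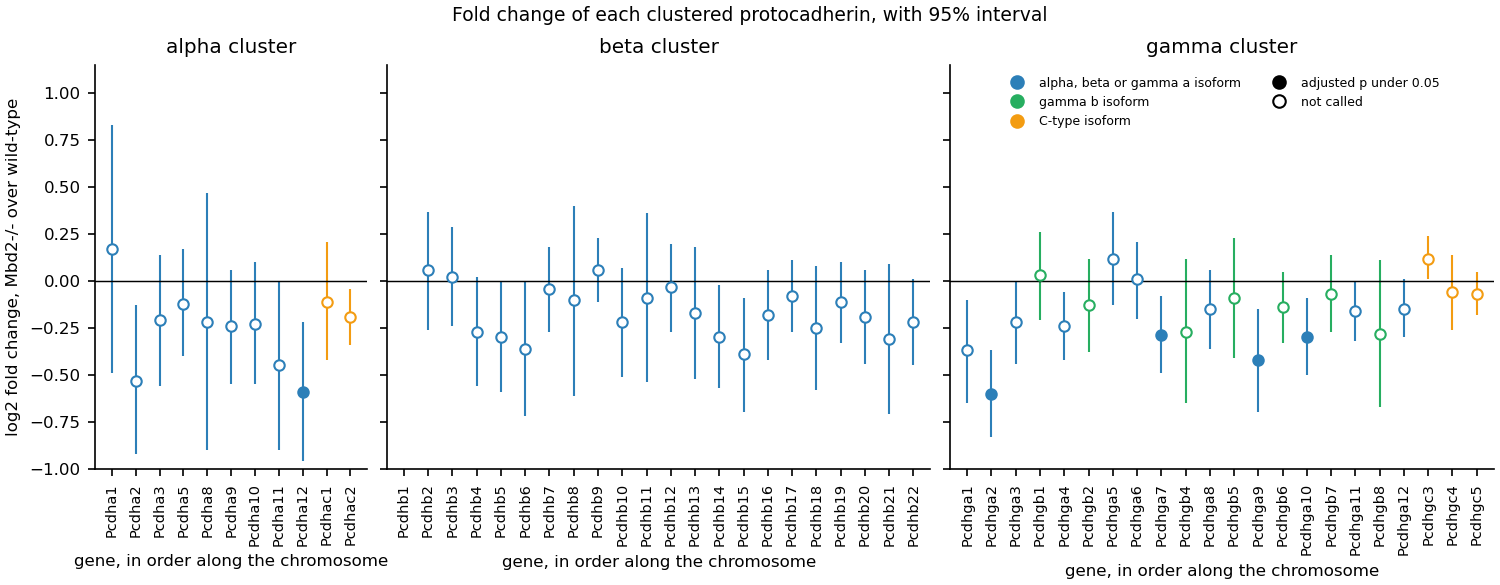
Log2 fold change (Mbd2-/- over wild-type, on the log2(normalized count + 1) scale) of each member in its order along the chromosome, with its 95% interval from limma. Filled circles are the 5 members called at an adjusted p under 0.05, Pcdhb1 was not tested, and 46 of 54 circles lie below 0.

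The changes were small. The log2 fold changes ran from -0.60 to 0.17 and all 54 of the 95% intervals lay within 1 log2 unit of 0 on either side, so a change of more than 2-fold lay outside each of them. In 39 of the 54 the interval included 0. At an unadjusted p under 0.05 there were 15 members (27.8%), beside 35.5% of all genes, and 14 of them were lower (25.9%), beside 17.0%. Just inside the threshold stood Pcdhga7 with an adjusted p of 0.0443 (limma), and just outside it Pcdhga1 with 0.0502, Pcdha2 with 0.0518 and Pcdhga4 with 0.0542. The count of 5 moved with the library left out, as did the share of all genes called lower. It was 1 (1.85%) when either wild-type replicate 1 or 4 was left out, beside 5.98% and 6.22% of all genes. It was 2 (3.70%) when the library left out was wild-type replicate 3 or the Mbd2-/- replicate 1, beside 6.05% and 6.33%. With the Mbd2-/- replicate 2 removed it was 3 (5.56%, beside 6.47%), with the Mbd2-/- replicate 4 removed it was 12 (22.2%, beside 17.6%), and Pcdhga2 was among the genes called in each of these fits.

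Pcdhga2, the second isoform of the gamma cluster, had normalized counts of 178, 151, 179.6 and 169 in wild-type replicates 1 to 4 and 109.8, 95.1, 113 and 129.7 in Mbd2-/- replicates 1 to 4. The highest Mbd2-/- library therefore stayed below the lowest wild-type library. Its mean fell from 169.7 ± 13.1 to 112 ± 14.2 (SD, n = 4 each), a log2 fold change of -0.60 ± 0.11 (SE) with a 95% interval from -0.83 to -0.37 (limma, adjusted p = 0.00118). It was called lower with each of the 8 libraries left out in turn and in each of the 8 other settings run for it, with adjusted p-values from 2.21e-05 to 0.00792. Its neighbours on either side, Pcdhga1 and Pcdhga3, had log2 fold changes of -0.37 and -0.22 (adjusted p = 0.0502 and 0.141, limma).

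Pcdhga9, Pcdhga10 and Pcdhga7 are further gamma a isoforms, which differ from one another in the part that the variable exon codes for, including the outer domains that recognise the partner, and share the constant part. Pcdhga9 had 109, 107, 122 and 105 in the wild-type and 65.1, 79.6, 100.4 and 87.4 in the Mbd2-/- replicates, a log2 fold change of -0.42 ± 0.13 (SE; limma, adjusted p = 0.0270). Pcdhga10 had 156, 145, 173 and 147 in the wild-type and 133, 115, 123 and 135 in the Mbd2-/- replicates, with -0.30 ± 0.10 (adjusted p = 0.0375, limma). Pcdhga7 had 178, 174, 212 and 194 against 169, 138, 167 and 147, with -0.29 ± 0.10 (adjusted p = 0.0443, limma). In none of the 3 did the genotypes overlap, but the gap was narrow, and wild-type replicate 3 was the highest library for each. These calls did not hold under every left-out library. Pcdhga9 kept its call in 2 of 8 such fits, losing it when any one wild-type library or the Mbd2-/- replicate 1 or 2 was removed, with adjusted p-values up to 0.0934. Pcdhga10 kept it in 2 of 8, those that left out wild-type replicate 2 and the Mbd2-/- replicate 4, and it also lost it under DESeq2 on the recovered reads (adjusted p = 0.0771). Pcdhga7 lost it when wild-type replicate 1, 3 or 4 was removed and when the Mbd2-/- replicate 2 was, with adjusted p-values up to 0.148. With no filter on low values, Pcdhga7 and Pcdhga10 both lost their calls (adjusted p = 0.0589 and 0.0519, limma).

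Pcdha12, the last of the alpha isoforms before the C-type exons, had 121, 90.3, 116 and 106 in the wild-type and 46.0, 84.1, 87.7 and 75.0 in the Mbd2-/- replicates. The genotypes did not overlap, with the nearest libraries at 90.3 and 87.7, and Mbd2-/- replicate 1 was the lowest. The mean fell from 108 ± 13.7 to 73.2 ± 18.9 (SD, n = 4 each), a log2 fold change of -0.59 ± 0.17 (SE) and a 95% interval from -0.96 to -0.22 (limma, adjusted p = 0.0230). Without Mbd2-/- replicate 1 the log2 fold change was -0.39 (adjusted p = 0.0581, limma), and the call was also lost without wild-type replicates 1, 3 or 4 (adjusted p = 0.0772, 0.0730 and 0.0515, limma).

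**Figure D2:**
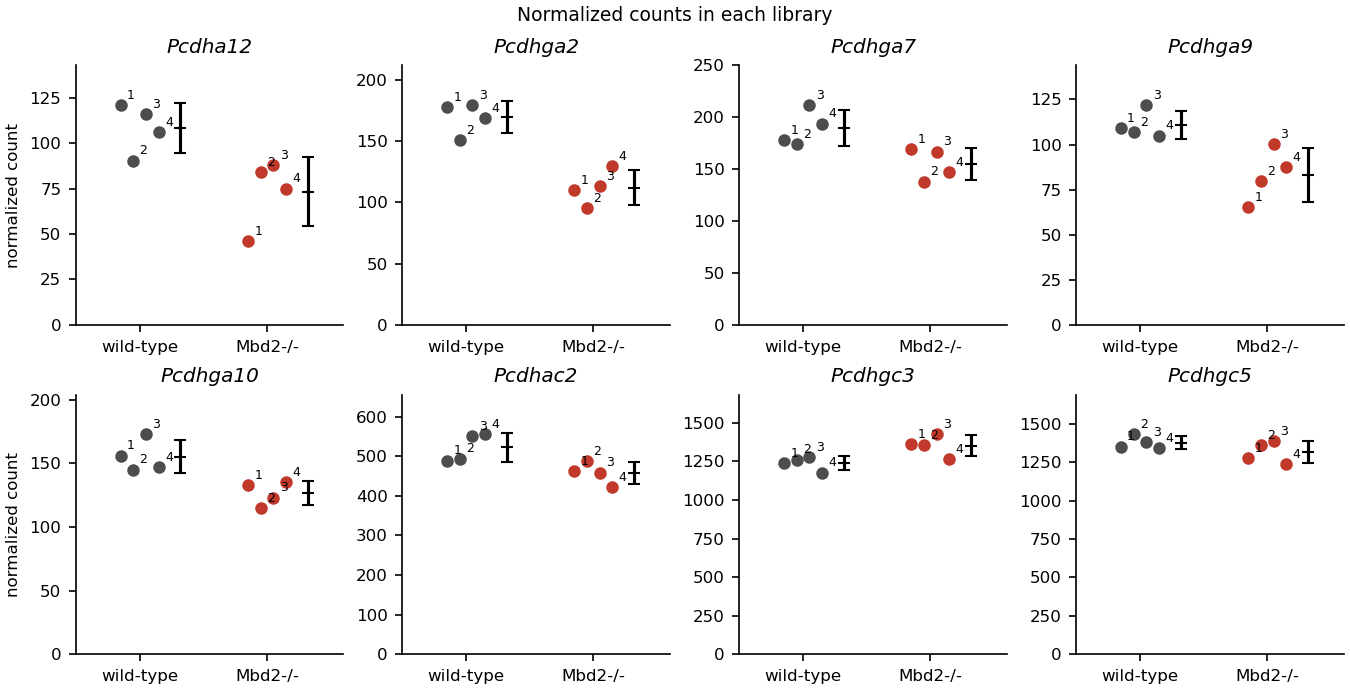
Normalized counts in each library for the 5 members called lower and for the 3 C-type isoforms with the highest normalized counts, with replicate numbers beside the points and the mean ± SD (n = 4) beside each genotype. The 5 called members do not overlap between genotypes, whereas Pcdhgc3 and Pcdhgc5 do and Pcdhac2 is separated by a single normalized count (489 against 488).

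Within the gamma cluster, a and b isoforms alternate along the chromosome, and the calls were on the a isoforms. Of the 12 gamma a genes, 4 were called lower and 7 did not overlap between genotypes, namely the 4 called and Pcdhga1, Pcdhga4 and Pcdhga12. These shares are 33.3% and 58.3%, beside 10.0% and 11.5% of all genes. Removing Mbd2-/- replicate 4 gave 5 called and 8 without overlap among the a genes (41.7% and 66.7%, beside 17.6% and 19.6% of all genes), and each other left-out library gave 1 to 3 called, with 7 or 8 without overlap. The lowest of these, 1 of 12 (8.33%), came with wild-type replicate 1, 3 or 4 removed, where 5.98%, 6.05% and 6.22% of all genes were called lower, and across these 7 fits 12.9% to 14.2% of all genes were lower without overlap. Of the 7 gamma b genes, 0 were called by limma, DESeq2 or edgeR, also at an unadjusted p under 0.05, and 0 were free of overlap, or 2 with Mbd2-/- replicate 4 removed, where 0 were again called (limma). The median log2 fold change was -0.23 for gamma a, -0.13 for gamma b and -0.06 for the gamma C-type genes. With a library left out it ran from -0.26 to -0.17 for gamma a. For gamma b it ran from -0.20 (without Mbd2-/- replicate 4) to -0.04 (without wild-type replicate 3), and for the C-type genes from -0.09 to -0.00. The difference between a and b genes was not tested, and the median SE of the log2 fold change was 0.10 for a and 0.12 for b genes. Pcdhga4 shows how even the a isoforms could be, with 177, 159.5, 182 and 165 in the wild-type and 143, 144, 143 and 147 in the Mbd2-/- replicates. In contrast, Pcdhga5 and Pcdhga6, which lie next to each other, had log2 fold changes of 0.12 and 0.01, with 95% intervals that reached 0.37 and 0.21. Pcdhga11, the gamma a isoform with the highest normalized count, had 384 ± 22.1 and 345 ± 28.4 (SD, n = 4 each; log2 fold change -0.16, adjusted p = 0.150, limma). Pcdhgb6, the b isoform with the highest, had 226 ± 16.1 and 205 ± 19.5 (-0.14, adjusted p = 0.268, limma).

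The C-type isoforms of the gamma cluster are the ones with assigned individual roles. Pcdhgc3 takes part in dendrite branching through Axin1, Pcdhgc4 is the isoform needed for neuronal survival, and Pcdhgc5 binds GABA-A receptors. Pcdhgc3 had 1237, 1262, 1279 and 1178 in the wild-type and 1361, 1354, 1427 and 1264 in the Mbd2-/- replicates. It thus overlapped only through Mbd2-/- replicate 4, and its log2 fold change of 0.12 ± 0.06 (SE) was not called (limma, adjusted p = 0.115). Without that library it was called higher, at 0.16 with an adjusted p of 0.0149 (limma), and it was then the 1 member called higher. Pcdhgc5 had 1352, 1434, 1382 and 1344 against 1277, 1364, 1387 and 1239 (-0.07, adjusted p = 0.406, limma), and Pcdhgc4 had 197 ± 21.3 against 188 ± 12.8 (SD, n = 4 each; -0.06, adjusted p = 0.677, limma). For Pcdhgc5 the 95% interval, from -0.18 to 0.05, leaves room for a change of the size of the gamma median, so these data do not show that it stayed level.

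Shares of the gamma cluster were free of overlap between genotypes for some isoforms and not for others. Pcdhgc3 made up 20.9% ± 0.602 of the cluster's normalized counts in wild-type pools and 24.1% ± 0.952 in those lacking Mbd2 (SD, n = 4 each), with wild-type shares of 20.9%, 21.7%, 20.3% and 20.7% all below Mbd2-/- shares of 24.5%, 24.3%, 24.8% and 22.7%. The gamma a isoforms together went from 38.3% ± 1.01 to 35.2% ± 1.28, with the lowest wild-type library at 37.1% and the highest Mbd2-/- library at 36.7%. Pcdhga2 went from 2.86% ± 0.186 to 1.99% ± 0.256, again without overlap. Overlap was seen in the shares of the C-type isoforms together (47.4% and 50.8%), the gamma b isoforms (14.2% and 13.9%) and Pcdhgc5 (23.2% and 23.4%, wild-type and Mbd2-/-). These shares are tied to each other, since a smaller part for some isoforms is a larger part for the rest, and no test was made on them. They are shares of normalized counts, not corrected for transcript length. When Pcdhgc3 was taken out of the total, the share of Pcdhga2 still went from 3.61% ± 0.220 to 2.62% ± 0.310 without overlap.

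The alpha cluster had a median log2 fold change of -0.22, with 10 of 11 isoforms below 0. The 1 called (9.09%) and the 2 free of overlap (18.2%) stood beside 10.0% and 11.5% of all genes, and without Mbd2-/- replicate 4 there were 3 of each (27.3%) beside 17.6% and 19.6%. Removing the Mbd2-/- replicate 3 gave 4 free of overlap (36.4%, beside 14.2% of all genes). The call was also lost, leaving 0, when wild-type replicate 1 or 4 or the Mbd2-/- replicate 1 was removed, and with wild-type replicate 3 removed Pcdha2 was called in place of Pcdha12. Pcdhac2, the C-type isoform through which serotonergic axons space themselves, held 49.7% ± 1.69 of the cluster's normalized counts in wild-type pools and 51.3% ± 2.37 in those lacking Mbd2 (SD, n = 4 each). Its libraries read 489, 494, 551 and 556 in wild-type and 462, 488, 459 and 422 in Mbd2-/-, a log2 fold change of -0.19 ± 0.07 (SE; limma, adjusted p = 0.0633). The serotonergic markers Fev and Slc6a4 were close to 0 in both genotypes, at means of 0.603 and 0.398 for Fev and 1.87 and 1.26 for Slc6a4 (wild-type and Mbd2-/-). Tph2 was low as well, at 15.1 and 12.0, and 0 of the 2 serotonergic markers tested were called, beside 10.0% of all genes lower and 12.0% higher. Sums over 4 markers were 90.3 to 106 in wild-type and 75.3 to 86.0 in Mbd2-/- libraries, without overlap. Most of each sum was Ddc, at means of 78.0 and 67.6, whose own values overlapped. The other C-type isoform, Pcdhac1, had 76.8 ± 10.6 and 71.6 ± 13.5 (SD, n = 4 each; -0.11, adjusted p = 0.644, limma).

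The alternate alpha isoforms were scarce, with group means between 10.6 and 108 normalized counts, and their errors were wide. Pcdha2 had 54.0, 40.6, 30.1 and 43.6 in the wild-type and 26.8, 27.4, 30.3 and 28.8 in the Mbd2-/- replicates. The 2 genotypes met at wild-type replicate 3 and Mbd2-/- replicate 3, and the log2 fold change of -0.53 ± 0.19 (SE) just missed the threshold (limma, adjusted p = 0.0518). It passed under edgeR on the recovered reads (adjusted p = 0.0459), with a pseudocount of 5, and when either wild-type replicate 3 or the Mbd2-/- replicate 4 was removed. Pcdha11 had 40.5, 35.4, 52.9 and 37.7 against 25.5, 21.9, 31.9 and 44.2, with -0.45 ± 0.21 (adjusted p = 0.139, limma). The overlap came from Mbd2-/- replicate 4, without which the log2 fold change was -0.63 (adjusted p = 0.0160, limma). Pcdha1 had a log2 fold change of 0.17, the only one above 0 in this cluster, with a 95% interval from -0.49 to 0.83 on as few as 9 reads in a library. Pcdha4, Pcdha6 and Pcdha7 were not analysed here.

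In the beta cluster 18 of 21 genes tested had a log2 fold change below 0, with a median of -0.18, beside 50.0% of all genes below 0. At an adjusted p under 0.05, 0 were called in either direction by limma, DESeq2 or edgeR, and at an unadjusted p under 0.05 there were 3 by limma, 0 by DESeq2 and 3 by edgeR. By limma, 10.0% of all genes were called lower and 12.0% higher, and the 3 at an unadjusted p under 0.05 (14.3%) stood beside 35.5% of all genes. The genotypes did not overlap for 4 beta genes (19.0%), all lower, beside 11.5% of all genes. Without Mbd2-/- replicate 4 there were 4 called lower and 7 free of overlap (19.0% and 33.3%, beside 17.6% and 19.6% of all genes), and each other left-out library gave 0 called. Beta proteins have the outer and transmembrane parts of the family and lack the shared inner part. The largest difference was in Pcdhb15, which had 76.4, 64.0, 69.3 and 66.9 in the wild-type and 43.4, 60.4, 46.2 and 61.5 in the Mbd2-/- replicates. The genotypes did not overlap, but the log2 fold change of -0.39 ± 0.15 (SE) did not pass (limma, adjusted p = 0.0614). Pcdhb4, Pcdhb5 and Pcdhb6, neighbours in the first part of the cluster, were free of overlap as well, at log2 fold changes of -0.27, -0.30 and -0.36 (adjusted p = 0.165, 0.139 and 0.143, limma). Pcdhb2, Pcdhb3 and Pcdhb9 were the 3 above 0, at 0.06, 0.02 and 0.06.

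Mbd2-/- replicate 4 bore on the beta cluster more than on the others. Pcdhb14 had 162, 166, 174 and 147 in the wild-type and 124, 119, 112 and 183 in the Mbd2-/- replicates, so that its highest value of all was in an Mbd2-/- library. Without replicate 4 the log2 fold change went from -0.30 (adjusted p = 0.114, limma) to -0.45 (adjusted p = 0.00106, limma). Without that library 4 beta genes were called lower, Pcdhb14, Pcdhb15, Pcdhb16 (-0.27, adjusted p = 0.0370, limma) and Pcdhb18 (-0.42, adjusted p = 0.0126, limma). Over all members 12 were then called lower and 1 higher, beside 17.6% of all genes called lower, and 46 of 54 were still below 0. Those 12 were the 4 beta genes, the 5 called with all libraries, Pcdha2, Pcdha11 and Pcdhga4.

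Beta genes could be compared per length of their longest transcript, from 2340 to 7131 bases. Pcdhb9 was the most abundant in both genotypes, at 67.1 normalized counts per kb in wild-type and 70.2 in Mbd2-/- libraries, followed by Pcdhb17 at 59.9 and 56.7. The normalized counts of Pcdhb9 were 205 ± 8.37 and 214 ± 13.3 (SD, n = 4 each; adjusted p = 0.610, limma), and the interval of its log2 fold change, from -0.11 to 0.23, included 0. Pcdhb1, the first gene, was barely expressed, at 2.70 ± 0.901 and 1.75 ± 0.683 normalized counts (SD, n = 4 each) on 1 to 5 reads a library, and was not tested. Longer transcripts leaned lower among all genes (Spearman's rho of -0.46 between transcript length and log2 fold change over 13243 genes), but within the beta cluster rho was -0.08 over 21 genes. With the length trend removed the beta median was -0.17. These are descriptions across genes, which are not independent.

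The ranking of isoforms was closely alike in the genotypes. Spearman's rho between wild-type and Mbd2-/- mean levels was 0.95 over the 11 alpha, 0.97 over the 22 beta and 0.97 over the 22 gamma genes, all read from the same libraries. The fold change followed the place of a gene in its cluster only weakly (rho of -0.13, -0.29 and 0.29 for alpha, beta and gamma over 11, 21 and 22 genes). The evenness of isoform use, given as the number of equally used isoforms that would have the same entropy, was 5.88 ± 0.183 and 5.71 ± 0.351 for alpha, 18.5 ± 0.215 and 18.1 ± 0.0971 for beta and 13.6 ± 0.510 and 12.7 ± 0.519 for gamma (wild-type and Mbd2-/-, SD, n = 4 each). For each cluster the genotypes overlapped in this measure, which rests on counts not corrected for transcript length.

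Summed over a cluster, the alpha isoforms had 1027, 979, 1117 and 1078 normalized counts in the wild-type and 872, 917, 902 and 876 in the Mbd2-/- replicates. This was a change of -15.1% in the mean without overlap. The beta sum had 2176, 2033, 2069 and 2195 against 1867, 1875, 1807 and 2172, a change of -8.88%, in which the overlap came from Mbd2-/- replicate 4, and -12.7% without that library. The gamma sum changed by -5.38%, from 5936 ± 268 to 5617 ± 98.0 (SD, n = 4 each), with overlap, and by -3.33% without wild-type replicate 3. It changed by -6.65% without wild-type replicate 4 and by -6.19% without the Mbd2-/- replicate 3, both without overlap. Within it the gamma a isoforms changed by -13.1% without overlap, the gamma b isoforms by -7.58% with overlap and the C-type isoforms by 1.51% with overlap. The gamma b change was -4.20% without wild-type replicate 3, -4.40% without the Mbd2-/- replicate 1 and -11.8% without the Mbd2-/- replicate 4. The C-type change ran from -0.382% without the Mbd2-/- replicate 3 to 3.55% without replicate 4 of that genotype, so its direction rests on single libraries. C-type isoforms make up 47.4% of the gamma total in wild-type and therefore weigh heavily in it. No p-value is given for these sums.

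**Figure D3:**
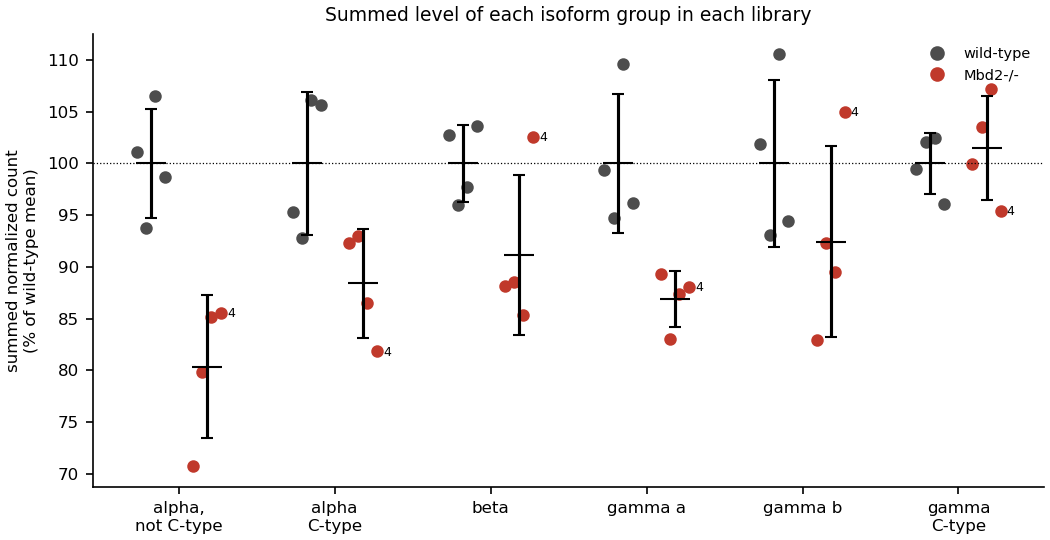
Summed normalized counts of the alpha isoforms that are not C-type, the alpha C-type isoforms, the beta genes and the gamma a, b and C-type isoforms in each library, as a percentage of the wild-type mean, with mean ± SD (n = 4). Mbd2-/- replicate 4 is marked and lies among the wild-type libraries for beta and gamma b, while the gamma a sums and the alpha sums outside the C-type do not overlap.

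Taking each library against the mean of the other wild-type libraries, the median over all 54 members was 0.01, -0.10, 0.11 and -0.01 on the log2 scale in wild-type replicates 1 to 4 and -0.21, -0.17, -0.19 and -0.11 in Mbd2-/- replicates 1 to 4. Wild-type replicate 2 thus came close to Mbd2-/- replicate 4. By cluster, the alpha median lay between -0.29 and -0.16 in the Mbd2-/- and between -0.20 and 0.14 in the wild-type libraries. The beta median of Mbd2-/- replicate 4 was 0.02, against -0.25 to -0.19 in the other 3, and the gamma medians of the Mbd2-/- libraries ran from -0.19 to -0.12. The shift of the members was about as large as the distance between the most separate wild-type libraries. That sets a difference between groups against single libraries, each measured from the others, so it does not weigh the shift. Sums over all members were 8828 to 9499.8 in wild-type and 8285 to 8625 in Mbd2-/- libraries, without overlap, and were not tested.

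**Figure D4:**
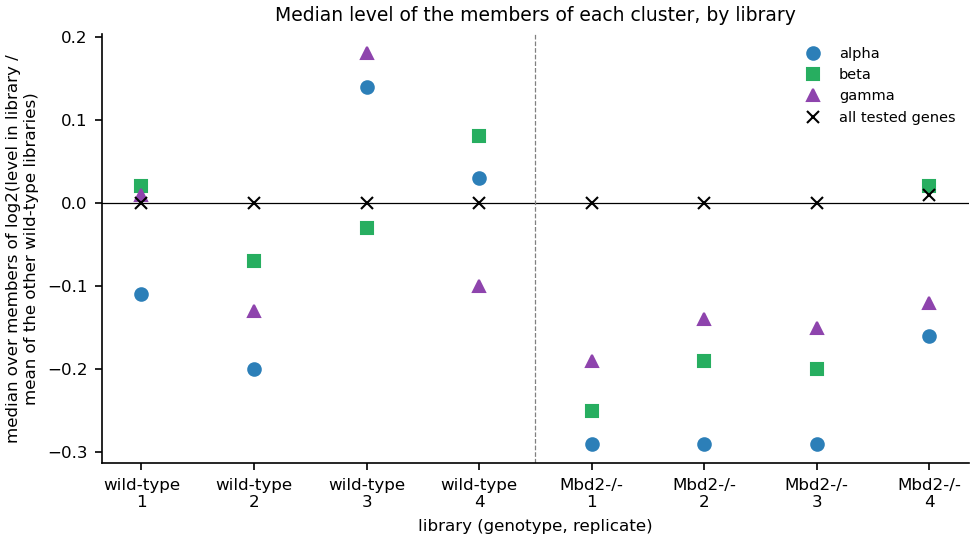
Median over the members of each cluster of the log2 ratio between a library and the mean of the other wild-type libraries (for Mbd2-/- libraries, all 4 wild-type libraries), with the same for all 14504 tested genes. The wild-type points spread from -0.20 to 0.18, and of the Mbd2-/- points for the 3 clusters all but the beta median of replicate 4 lie below 0.

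Of the factors known to act on these promoters, 5 of 25 tested fell and 0 rose, beside 10.0% of all genes lower and 12.0% higher. With Mbd2-/- replicate 4 removed 11 of 25 were called lower (44.0%, beside 17.6% of all genes), and with each of the other libraries removed 1 to 3 were (4.00% to 12.0%, beside 5.98% to 9.51% of all genes). A single gene was called, a smaller share than among all genes, when wild-type replicate 1, 3 or 4 or the Mbd2-/- replicate 1 was removed (4.00%, beside 5.98% to 6.33%). Setdb1, a histone methyltransferase that keeps the locus folded, went from 593 ± 22.5 to 500.3 ± 38.8 (SD, n = 4 each; log2 fold change -0.25, adjusted p = 0.0164, limma). Smchd1, a repressor of the clusters, fell by 0.20, the cohesin subunit Smc1a fell by 0.26, the DNA methyltransferase Dnmt3a fell by 0.22 and the demethylation enzyme Tet2 fell by 0.31 on the log2 scale (adjusted p = 0.0366, 0.0175, 0.0303 and 0.0344, limma). Most of these calls depended on which libraries were kept. Smc1a was still called in 7 of the 8 left-out fits, losing its call without wild-type replicate 3, and Setdb1 in 5, losing it without wild-type replicate 1 or 4 or the Mbd2-/- replicate 1. Dnmt3a was called in 3 of them, those without wild-type replicate 2 or the Mbd2-/- replicate 3 or 4, and Smchd1 and Tet2 in 1 each, that without the Mbd2-/- replicate 4. Ctcf was 789 ± 38.6 and 797 ± 32.1 (SD, n = 4 each; 0.02, 95% interval from -0.11 to 0.14). Dnmt3b, which acts on these promoters before the adult stage, was scarce at 7.65 ± 1.29 and 12.5 ± 4.55 (SD, n = 4 each), and its interval from -0.10 to 1.27 decides neither direction. A level of RNA is no measure of binding or methylation at the clusters.

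Among 26 signalling and processing partners of the proteins, 4 fell and 2 rose (15.4% and 7.69%, beside 10.0% and 12.0% of all genes), and the median was -0.02. Without Mbd2-/- replicate 4 there were 9 lower and 2 higher (34.6% and 7.69%, beside 17.6% and 17.9% of all genes), and leaving out another library gave 2 to 4 lower, beside 5.98% to 9.51% of all genes. Ptk2b, a kinase that the shared inner part of alpha and gamma proteins holds back, fell by 0.16, and its relative Ptk2 had -0.10 (adjusted p = 0.0265 and 0.192, limma). Of the actin regulators, Cyfip2 of the WAVE complex fell by 0.14 and Cttn fell by 0.17, whereas Brk1, also of the WAVE complex, rose by 0.25 and the GTPase Rhoa rose by 0.22 (adjusted p = 0.0206, 0.0166, 0.00489 and 0.00812, limma). Nlgn2, an inhibitory synapse protein that gamma protocadherins bind, fell by 0.33 (adjusted p = 2.95e-04, limma), and its libraries of 3037 to 3274 in wild-type and 2460.1 to 2599.9 in Mbd2-/- did not overlap. Nlgn2, Brk1 and Rhoa kept their calls in each of the 8 left-out fits, Cttn in 7 (lost without the Mbd2-/- replicate 1), and Ptk2b and Cyfip2 in 3 each, both losing theirs when any one wild-type library was removed and, respectively, without the Mbd2-/- replicate 1 and 2. Of the 26 genes, 20 were not called.

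Genes that flank or sit within the clusters gave no call with all libraries. Of 8 tested, 0 fell and 0 rose (limma), beside 10.0% and 12.0% of all genes, shares at which so few genes may well hold no call. At an unadjusted p under 0.05 there was 1 (12.5%, beside 35.5% of all genes), the median was 0.07 and 2 of 8 were below 0. The smallest p-values were those of Fchsd1 (-0.33, adjusted p = 0.0968, limma) and Rell2 (0.17, adjusted p = 0.161, limma). DESeq2 and edgeR on the recovered reads called 0 of them as well. Without Mbd2-/- replicate 4, Taf7 was called lower (-0.38, adjusted p = 0.0459, limma) and Rell2 higher (0.24, adjusted p = 0.00930, limma), 12.5% in each direction beside 17.6% and 17.9% of all genes. The non-clustered protocadherins, which have own loci and no shared exons, had a median of -0.11 over 12 genes, with 9 below 0 (50.0% of all genes were), 3 called lower and 1 called higher (25.0% and 8.33%, beside 10.0% and 12.0% of all genes). Without Mbd2-/- replicate 4 there were 7 called lower and 1 higher (58.3% and 8.33%, beside 17.6% and 17.9%), and leaving out another library gave 2 or 3 lower (16.7% or 25.0%, beside 5.98% to 9.51% of all genes). Pcdh1 fell by 0.23, Pcdh9 fell by 0.30 and Pcdh15 fell by 0.50, while Pcdh20 rose by 0.20 (adjusted p = 0.00417, 0.00481, 0.0180 and 0.0144, limma). Pcdh1 and Pcdh9 kept their calls in each of the 8 left-out fits, Pcdh15 lost its call without wild-type replicate 4 or the Mbd2-/- replicate 1 or 2, and Pcdh20 lost its call, leaving 0 higher, without wild-type replicate 1 or 3. The difference between these 12 genes and the clustered genes was not tested.

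Markers of other cells and regions moved with genotype beside these results. With all libraries, 10.0% of all genes were called lower and 12.0% higher. The neuronal markers of the hippocampus were mixed, with 4 of 11 principal neuron genes lower (36.4%) and 1 higher (9.09%). Their summed level went from between 97819 and 99569 in wild-type to between 107016 and 112272 in Mbd2-/- libraries. Camk2a, the most abundant of them, rose by 0.27 on the log2 scale and carried this rise. The other 10 genes summed to between 30487 and 31149 in wild-type and between 26332 and 29677 in Mbd2-/- libraries, lower without overlap, and 8 of the 11 had a log2 fold change below 0. Of 7 interneuron markers, 2 fell (Gad1 and Gad2, 28.6%) and 5 rose (71.4%), with sums of 11045 to 11655 against 10579 to 12590.2. Of glial markers, 4 of 5 astrocyte and 3 of 5 oligodendrocyte genes rose, with summed levels of 19769.8 to 20689 against 25219 to 25611 and of 69963 to 71297 against 82407 to 88449, and 2 of 3 precursor genes fell, with sums of 1807 to 1933 against 1579.5 to 1768. Without Mbd2-/- replicate 4, 17.6% of all genes were called lower and 17.9% higher. The calls were then 17 of 17 choroid plexus genes higher (100%) and 11 of 14 thalamus genes lower (78.6%). Of the principal neuron genes 4 were lower and 2 higher (36.4% and 18.2%), and 5 of 5 oligodendrocyte genes were higher (100%). The interneuron, astrocyte and precursor genes had the same counts as with all libraries. The interneuron genes called higher were 3 in place of 5 when wild-type replicate 1, 2 or 3 or the Mbd2-/- replicate 1 or 2 was removed (42.9%, beside 8.07% to 9.51% of all genes). The precursor genes called lower were 1 in place of 2 in 5 of the 8 such fits (33.3%, beside 5.98% to 9.51% of all genes). Those were the fits without wild-type replicate 1, 2 or 3 or the Mbd2-/- replicate 1 or 3. No listed marker of these groups was at 0 in all libraries. Their part in the changes of the clustered protocadherins, and that of the choroid plexus and thalamus genes given above, was not tested.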

How the data were processed

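Total RNA of hippocampus was depleted of ribosomal RNA with a RiboMinus kit and sequenced with an Illumina HiSeq in paired reads of 100 bases. The authors removed duplicate reads, used STAR for alignment to mm9 and DESeq2 for the genotype comparison, and versions and the counting tool are not given in the sources used here. The signal deposited per library is the normalized count, which the authors made by dividing the reads on a gene by the size factor of the library. The 6 columns of the authors' own comparison (mean, fold change, its error, statistic and p-values) were not used. In every library 100% of the values were whole multiples of its smallest value above 0 to within 0.01 of a read, so reads were recovered for the count tests. Library totals were 8087750 to 23790825 reads on genes, members with few reads carry wide counting error, and the SEs hold both this and the spread between the 4 pools a genotype. The labels do not say that pools came from separate litters.

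The main test was limma 3.58.1 (R 4.3.3; trend and robust options on) over the 14504 genes whose mean normalized count reached 10, on log2(normalized count + 1). Genes were called when the p adjusted over all of them (Benjamini-Hochberg) was under 0.05. A fold change on this scale understates the change of low genes. The script was tested on simulated data. Sums, shares and medians over members got no test. Gene positions come from GENCODE vM1 (mm9), and the order of genes from RefSeq. The members, lists and tests were chosen with earlier results of these data known. Members named are those called, those with the highest mean normalized count in each group, the C-type isoforms, the 3 uncalled with the largest change and Pcdhb1. Other members, and Ctcf, Dnmt3b, Ptk2, Tph2, Fev, Slc6a4 and Ddc, were picked for mention with their values known. Alternatives comprised edgeR 4.0.16 and DESeq2 1.42.0 on the recovered reads, TMM scaling, other filters and pseudocounts, a length correction, a replicate block and leaving out each library. The libraries of the same number did not pair (correlations of their deviations of -0.103, -0.057, 0.074 and 0.035).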

Additional observations from a re-analysis of the deposited data

Results flagged for a closer look

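Within a genotype of 4 libraries, a value was singled out when its gap to the nearest other library was a larger share of the group's range than Dixon's 95% critical value for 4 samples. This was the case in 4 of 118 groups examined, and chance alone singles out about 1 in 20. Pcdhb12 had 81.7 normalized counts in Mbd2-/- replicate 4, below 101, 101 and 102 in the other 3. Pcdhgb7 had 176 in the same library, above 139.9, 143 and 143. Pcdhb13 had 46.2 in Mbd2-/- replicate 3, below 79.6, 82.6 and 83.0. Pcdhgb8 had 29.4 in Mbd2-/- replicate 1, below 44.6, 44.8 and 46.1. None of these 4 genes was called (limma), and none of the 5 called members was singled out in this way.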

How the results depend on the processing

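The number of clustered protocadherins called lower was 5, between 3 and 7 in the settings other than left-out libraries, and 3 with no filter on low values, where more genes share the adjustment. Leaving out 1 library gave between 1 and 12 called lower (1.85% to 22.2%, beside 5.98% to 17.6% of all genes). Between 0 and 1 were then called higher (0% to 1.85%, beside 8.07% to 17.9% of all genes). The replicate block gave 6 called lower, beside 9.99% of all genes. It added Pcdhga1 (adjusted p = 0.0412, limma) to the 5 and changed no other call among the members. Across the alternatives run, the medians lay between -0.26 and -0.19 for alpha, -0.25 and -0.14 for beta and -0.20 and -0.10 for gamma. Leaving out 1 of 4 libraries moves a mean by little beside the spread between libraries, so no steadiness of the cluster sums is read from it. Refits were followed for 15 members picked with their values known, among them the 5 called and others near the threshold, so a reversal was unlikely. Of 242 refits of these, 0 reversed, 23 lost a call (20 of them with a library left out) and 17 gained one. Signs did change among all members. The number below 0 was 46 of 54 with all libraries and ran from 44 to 49 with a library left out. The length correction is read for the beta cluster only, where it called 0 genes, beside 6.95% of all genes called lower. Its fit held 24 members, among them Pcdha3, Pcdha11 and Pcdhgc5, and called none of them. The models of Pcdha11 and Pcdhgc5 join 10 transcripts each, and transcript lengths of the other alpha and gamma isoforms were not known. TMM scaling moved no library by more than 0.0081 on the log2 scale.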
